A study of Mus musculus with 9 samples.

Results

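The 10 genes described here carry the main steps of iron handling in a cell. They cover uptake (Tfrc, Steap3, Slc11a2), transport out of endosomes and phagosomes (Slc11a2, Slc11a1), import into mitochondria (Slc25a37), storage (Fth1, Ftl1), export (Slc40a1) and control (Ireb2, Ncoa4). They were chosen by name and matched to the gene names in the array files, where 20 probes carry them, and to the same names in the deposited log2 table, which holds all 10. All 10 were among the 29410 genes tested, and all 20 probes were well above background on all 9 arrays. Gene expression was measured with Agilent 1-colour arrays in megakaryocytes (MKs) from the bone marrow of male mice, in 3 groups of 3 arrays each. The Ctrl group was not irradiated, and the methods describe sham irradiation of control mice. The other groups received a single 5 Gy dose of γ-rays to the whole body and were sampled at 1 and 3 days post IR (dpi). The series states that experiments were independent and that donors differed. The methods describe lysis of red blood cells, after which mature MKs (mMKs) were enriched by positive selection for CD41 and then CD42d. Like the labels, the methods call the cells sorted. Strain, genotype, age and any pooling of the mice on these arrays are not stated in the labels, which describe them as background-matched and kept free of specific pathogens.

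As background, most cells take up iron bound to transferrin through the transferrin receptor, encoded by Tfrc. In the endosome the iron is released and reduced by the ferrireductase STEAP3, and it leaves through the transporter DMT1, encoded by Slc11a2. Iron that is not used is stored in ferritin, a shell of heavy chains (Fth1) and light chains (Ftl1), and it leaves the cell through ferroportin, encoded by Slc40a1. Iron regulatory proteins, of which Ireb2 encodes IRP2, bind stem loops in several of these mRNAs when iron is low, which stabilizes the mRNA of Tfrc and blocks translation of the ferritins. Much of that control acts on translation, which arrays do not measure. In the marrow, erythroblasts take up the most iron for haem, and macrophages recover it from old red cells and export it through ferroportin.

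The promoter table from RefSeq (build GRCm38.p6) matched 7 of the 10 members, and not Slc40a1, Slc11a2 and Slc25a37. The 250 bases before the transcript start are shown for the members that were called against Ctrl and for Fth1, whose protein forms ferritin together with that of Ftl1. Each run is written 5′ to 3′ on the gene's strand. Capitals mark a match, on either strand, to the GC box motif (GGGCGG), to the motif of the TATA box (TATAAA) or to the PU.1 core (GAGGAA), and none of the marked matches overlap. The windows are chr16:32608646-32608895 (+ strand) and chr16:32608872-32609121 (+ strand) for the 2 records of Tfrc, which share their edge, chr9:54863505-54863754 (+ strand) for Ireb2, chr7:45459887-45460136 (- strand) for Ftl1, chr1:74374953-74375202 (+ strand) for Slc11a1, and chr19:9982396-9982645 (+ strand) and chr19:9980350-9980599 (+ strand) for the 2 records of Fth1.
Tfrc, first record: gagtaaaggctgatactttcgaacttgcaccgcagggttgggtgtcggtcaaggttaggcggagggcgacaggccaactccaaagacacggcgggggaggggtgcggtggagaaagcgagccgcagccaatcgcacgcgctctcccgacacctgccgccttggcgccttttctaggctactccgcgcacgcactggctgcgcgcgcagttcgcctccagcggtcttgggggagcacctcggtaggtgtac
Tfrc, second record: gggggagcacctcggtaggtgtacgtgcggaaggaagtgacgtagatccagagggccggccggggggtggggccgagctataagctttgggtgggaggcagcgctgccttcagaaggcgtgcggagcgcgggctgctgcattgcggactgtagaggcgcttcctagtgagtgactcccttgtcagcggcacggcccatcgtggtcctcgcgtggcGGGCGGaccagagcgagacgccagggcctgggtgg
Ireb2: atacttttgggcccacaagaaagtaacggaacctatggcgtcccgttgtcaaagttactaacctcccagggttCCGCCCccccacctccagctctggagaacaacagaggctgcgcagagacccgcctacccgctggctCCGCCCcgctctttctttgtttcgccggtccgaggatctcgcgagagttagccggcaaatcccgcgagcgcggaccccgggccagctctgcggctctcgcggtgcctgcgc
Ftl1: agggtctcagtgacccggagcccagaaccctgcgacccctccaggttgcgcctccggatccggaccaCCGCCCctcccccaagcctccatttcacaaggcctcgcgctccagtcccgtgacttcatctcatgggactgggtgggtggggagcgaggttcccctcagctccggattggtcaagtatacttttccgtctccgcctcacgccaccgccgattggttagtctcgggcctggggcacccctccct
Slc11a1: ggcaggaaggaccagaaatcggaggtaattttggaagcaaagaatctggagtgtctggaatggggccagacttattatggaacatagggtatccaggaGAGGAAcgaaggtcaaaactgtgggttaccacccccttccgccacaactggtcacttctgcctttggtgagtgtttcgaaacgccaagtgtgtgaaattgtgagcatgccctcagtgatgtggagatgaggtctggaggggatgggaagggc
Fth1, one record: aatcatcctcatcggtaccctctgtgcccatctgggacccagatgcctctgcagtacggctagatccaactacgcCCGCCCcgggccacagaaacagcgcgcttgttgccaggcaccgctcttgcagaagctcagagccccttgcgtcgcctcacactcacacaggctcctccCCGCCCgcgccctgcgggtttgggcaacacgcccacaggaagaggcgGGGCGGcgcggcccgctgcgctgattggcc
Fth1, other record: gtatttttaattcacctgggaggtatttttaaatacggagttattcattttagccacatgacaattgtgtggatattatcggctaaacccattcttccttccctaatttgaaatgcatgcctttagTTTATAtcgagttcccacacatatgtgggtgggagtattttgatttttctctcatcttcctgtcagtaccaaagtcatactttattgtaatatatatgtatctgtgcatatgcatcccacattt
The windows of Ireb2, of Ftl1, of one record of Fth1 and of the second record of Tfrc hold 2, 1, 3 and 1 GC boxes, a motif found in 32.7% of 32851 promoter windows of this length. Slc11a1, a gene of phagocytes, has 1 PU.1 core (23.3% of windows), and the other record of Fth1 has 1 TATA box (12.4%). The E-box CACGTG (6.02%), the core TGACNNNGC of the antioxidant response element (10.2%) and the GATA site AGATAA (9.99%) matched none of these 7 windows. These matches describe letters in a window and show neither binding nor its absence.

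Each array has 59305 measured spots, and no spot was saturated. The share of spots well above background was 69.1%, 79.5% and 80.8% in Ctrl, with the lowest value on replicate 1, 72.3% to 75.6% at 1 dpi and 81.6% to 81.8% at 3 dpi. Ctrl replicate 1 was alone on its slide, and the other 8 arrays shared 1 slide. Every value is a log2 intensity from which the 75th percentile of its array was subtracted. That percentile was 10.03, 10.62 and 10.66 in Ctrl, 9.33, 9.45 and 9.43 at 1 dpi, and 10.37, 10.55 and 10.53 at 3 dpi. The groups were fitted together with limma. A call needs 2 things, an adjusted p (Benjamini-Hochberg, over all genes) under 0.05 and a change of 2-fold or more. Fold changes are on the log2 scale with their standard error (SE). Where a gene has several probes, the brightest one stands for it. The number of arrays limits the precision.

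The label of the samples was checked against markers. All 20 MK markers were tested, with Pf4, the gene of platelet factor 4, as the most abundant. Their summed level, in multiples of the 75th percentile, was 184, 166 and 164 on the Ctrl arrays, 170, 158 and 155 at 1 dpi and 183, 181 and 178 at 3 dpi. None of the 20 was called at 1 dpi by limma, which is 0 also at an unadjusted p and by the methods' t-test with the 2-fold minimum, and 2 were called higher at 3 dpi. With the adjusted p alone, 4 were higher and 6 lower at 1 dpi (34.8% and 21.1% of all genes). At 3 dpi 9 were higher and 2 lower in the same way (16.9% and 15.1%). Markers of other marrow cells were present too and differed between the groups. The largest sum was that of the neutrophil and monocyte markers, at 1590, 1640 and 1630 in Ctrl. Mpo, their most abundant gene, had a Ctrl mean of 7.72, and that of Pf4 was 6.02. Sums over different genes do not give shares of cells, and the part of other cells in the values of these samples was not tested. The erythroid markers, of which Hba-a1 is the most abundant, summed to 239, 203 and 213 in Ctrl, 525, 429 and 421 at 1 dpi, and 77.2, 77.7 and 72 at 3 dpi. At 1 dpi 3 of 22 erythroid markers were called higher and 13 lower, so the sum followed a few genes and the majority of the list went the other way. At 3 dpi 1 was called higher and 19 lower. The macrophage markers, led by Lyz2, summed to 219, 245 and 237 in Ctrl, 398, 363 and 366 at 1 dpi and 383, 350 and 371 at 3 dpi. At 1 dpi 10 of 22 macrophage markers were called higher and 2 lower. By 3 dpi 17 of them were called higher and 0 lower, where limma at an unadjusted p and the methods' t-test, with the same 2-fold minimum, also gave 0 lower. Hbb-bs is not on the array by that name. Of 12 B cell markers, led by Cd79b, 10 were called lower at each time, and their sum fell from between 31.6 and 33.2 in Ctrl to at most 8.08 after IR. These samples are bulk RNA, in which fewer cells of a type and less RNA per cell cannot be told apart. All sums weigh bright genes most and were made only with the 75th percentile, which was lowest at 1 dpi.

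**Figure D1:**
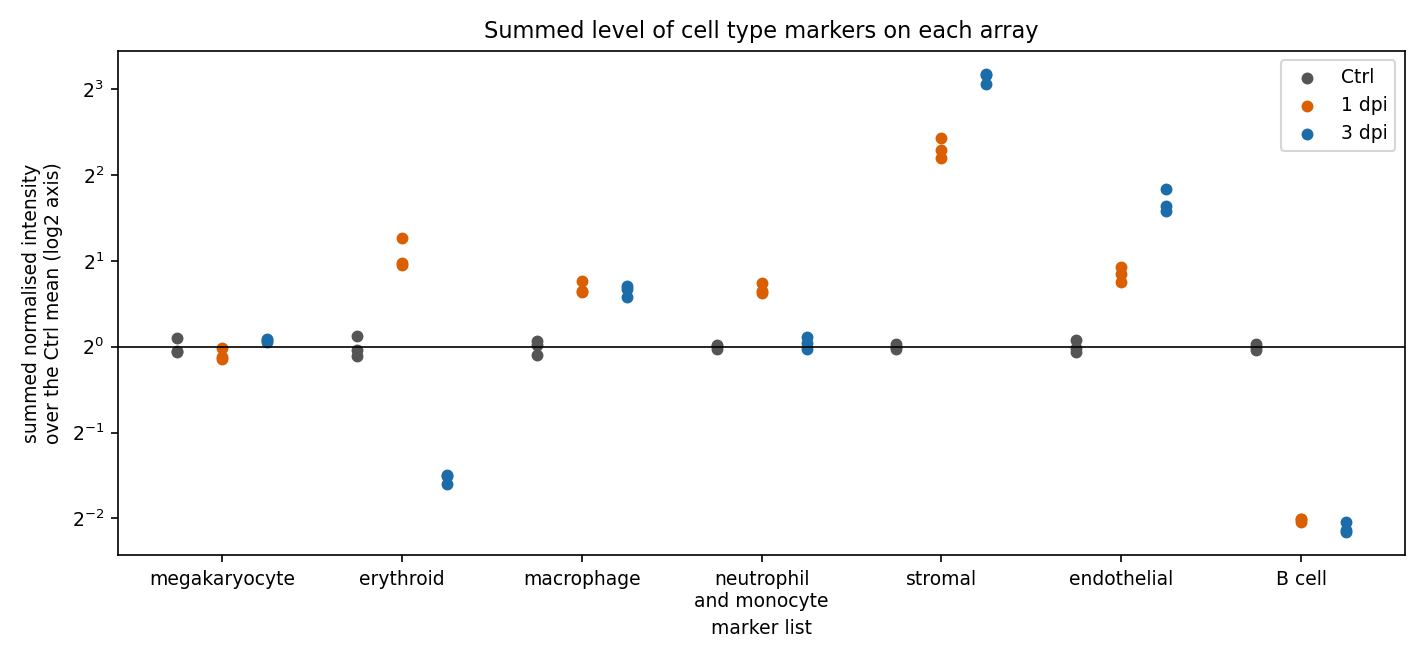
Summed normalised intensity of 7 lists of cell type markers on each of the 9 arrays, divided by the mean of the 3 Ctrl arrays and drawn on a log2 axis. The MK sum stays near the Ctrl level, the erythroid sum is highest at 1 dpi and lowest at 3 dpi, and the macrophage sum is above Ctrl at both times.

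The comparison of 1 dpi with Ctrl asks which iron genes differ in these MK-enriched samples soon after irradiation. Of the 10 members 2 were called higher, Slc11a1 and Ftl1, where 12.3% of all genes were called higher. Another 2 were called lower, Tfrc and Ireb2, where 2.87% of all genes were. With the adjusted p alone and no minimum fold, 3 members were higher (34.8% of all genes) and 5 lower (21.1%), which adds Fth1, Slc40a1, Slc11a2 and Ncoa4. At 3 dpi against Ctrl only Slc11a1 was called, as higher (6.98% of all genes), and 0 members were called lower (1.82%). The count lower was also 0 with limma at an unadjusted p and with the methods' t-test, both with the 2-fold minimum. With the adjusted p alone, 3 members were higher at 3 dpi (16.9%) and 1 was lower (15.1%). Between 3 and 1 dpi Slc40a1 was called higher at 3 dpi (3.97%) and 0 members lower (4.82%), again 0 by both other counts, and with the adjusted p alone 4 were higher (19.8%) and 3 lower (24.9%). Most of these shares are close to the background or rest on 1 or 2 genes, so the account that follows is of single genes. The median log2 fold change of the members was -0.06 at 1 dpi, 0.04 at 3 dpi and 0.11 between them, and that of all genes was 0.25, 0.11 and -0.11. The size of this shift of all genes differs between scalings. At 1 dpi quantile normalization put it at 0.00 and array median scaling at -0.10. Both set the distribution or the median of the arrays equal, which brings the shift near 0 by design. Its source was not tested. The 2 comparisons with Ctrl share the same Ctrl arrays.

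**Figure D2:**
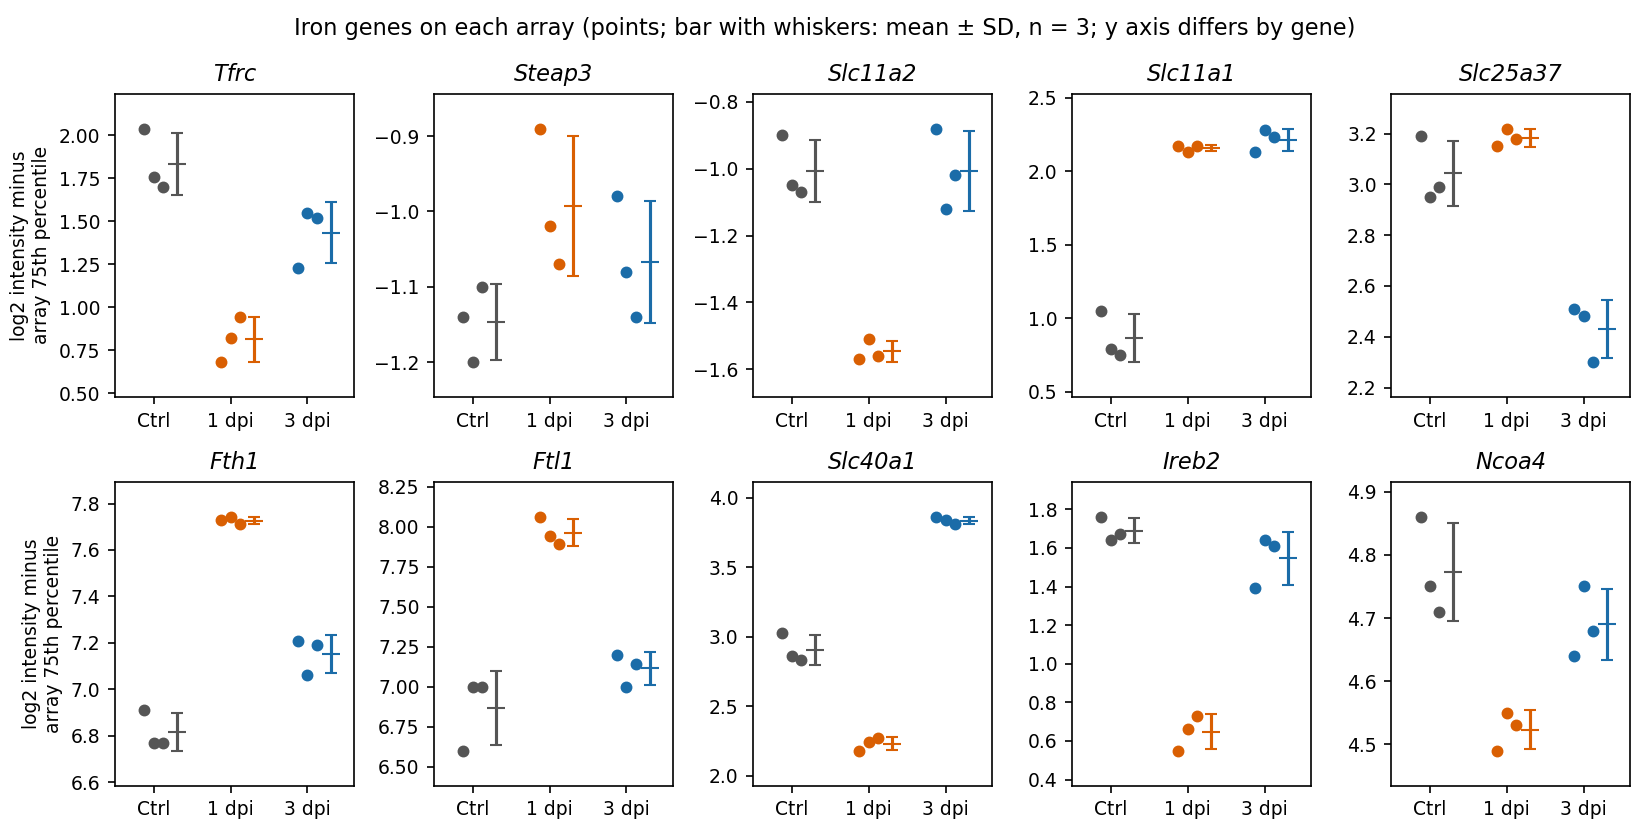
Log2 intensity minus the array's 75th percentile for the 10 iron genes on each array (points), with the mean and SD of the 3 arrays of each group, and a y axis of its own for each gene. Tfrc, Slc40a1, Slc11a2 and Ireb2 are lowest at 1 dpi, Fth1 and Ftl1 are highest there, Slc11a1 is high at both times after IR, and Slc25a37 is lowest at 3 dpi.

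**Figure D3:**
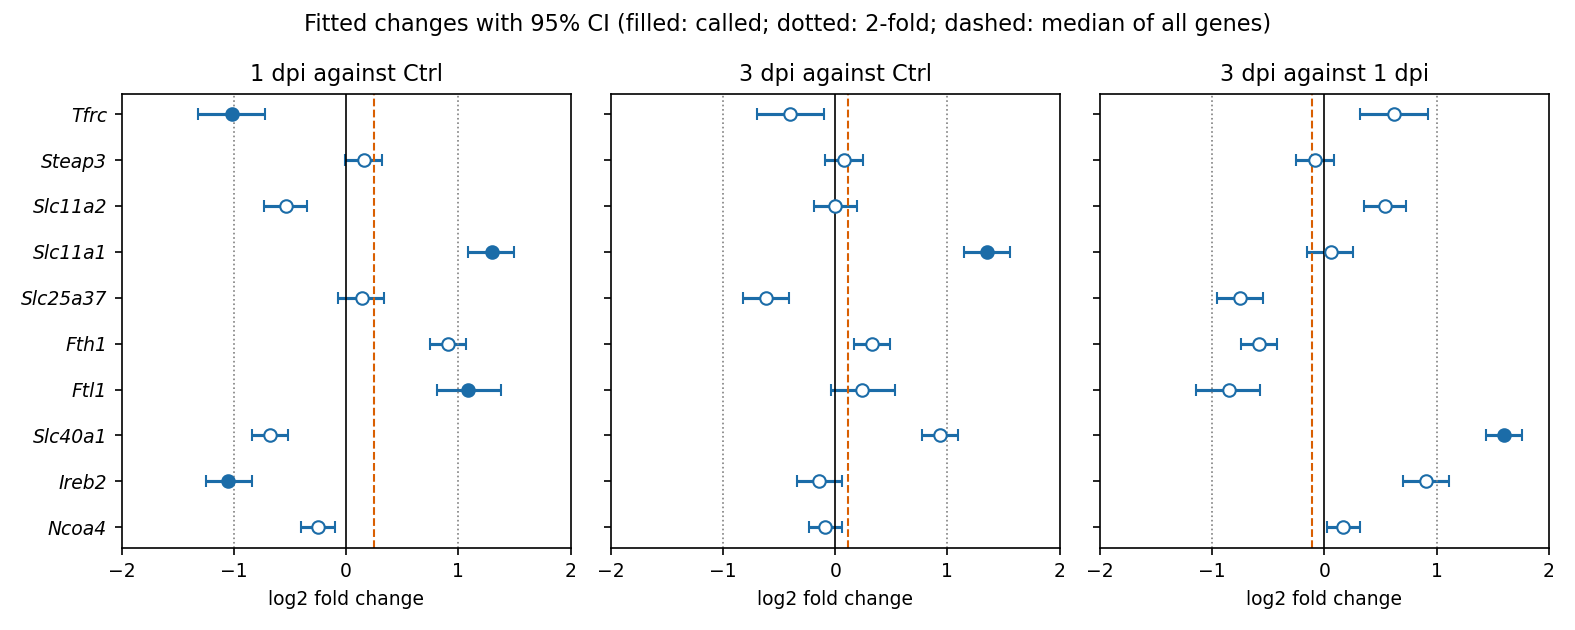
Log2 fold changes of the 10 iron genes from limma with their 95% confidence intervals in the 3 comparisons, filled where the gene was called, with dotted lines at 2-fold and a dashed line at the median of all genes. Filled points are Tfrc, Slc11a1, Ftl1 and Ireb2 at 1 dpi, Slc11a1 at 3 dpi and Slc40a1 between both times.

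Among the uptake genes, Tfrc (chromosome 16, 32632255 to 32632314 on mm9) encodes the receptor that brings transferrin-bound iron into the cell. Its values were 2.04, 1.76 and 1.70 on the Ctrl arrays, 0.68, 0.82 and 0.94 at 1 dpi, and 1.23, 1.55 and 1.52 at 3 dpi. All 1 dpi arrays lay below all others, and the 3 dpi arrays lay between the 1 dpi and the Ctrl arrays without overlap. At 1 dpi Tfrc fell by 1.02 (SE 0.13, with an adjusted p of 4.6e-04 in limma), or -1.26 relative to the median of all genes. At 3 dpi it was at -0.40 against Ctrl, just outside the threshold (adjusted p = 0.0504), and it was 0.62 above its level at 1 dpi (adjusted p = 0.00618), which is under 2-fold. The call at 1 dpi sits at the 2-fold limit and ends in 9 of 26 alternatives. These are quantile normalization and normexp (-0.99 each), the deposited table (-1.00), the mean of both probes (-0.44), the 3 slide terms, and the fits without Ctrl replicate 1 (-0.91, also the value within the shared slide) and without 1 dpi replicate 1 (-0.95). The second probe of Tfrc, 11726 bases away, did not show this fall. It read -0.42, -0.68 and -0.76 in Ctrl, -0.37, -0.48 and -0.63 at 1 dpi, and -0.05, -0.41 and -0.42 at 3 dpi. Its groups at 1 dpi and in Ctrl overlap, with a fold change of 0.13 (adjusted p = 0.441). Erythroid cells take up much iron through this receptor. Their list had 13 of 22 genes called lower and 3 higher at 1 dpi, and 19 lower and 1 higher at 3 dpi. The sum of the list, led by Hba-a1, was above Ctrl at 1 dpi and below it at 3 dpi. The part of erythroid RNA in the Tfrc values was not tested.

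Steap3 encodes the ferrireductase of the endosome. Its values were -1.14, -1.20 and -1.10 in Ctrl, -0.89, -1.02 and -1.07 at 1 dpi, and -0.98, -1.08 and -1.14 at 3 dpi. The 1 dpi arrays lay above the Ctrl arrays by less than the spread within the 1 dpi group, and the 3 dpi arrays overlapped both. Its change of 0.16 at 1 dpi (95% CI -0.01 to 0.32, adjusted p = 0.103) and of 0.08 at 3 dpi (95% CI -0.09 to 0.25) did not pass, and with array median scaling they turn to -0.19 and -0.07.

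Slc11a2 encodes DMT1, which carries ferrous iron out of the endosome. On its brightest probe (chromosome 15, 100218333 to 100218392) it read -0.90, -1.05 and -1.07 in Ctrl, -1.57, -1.51 and -1.56 at 1 dpi, and -0.88, -1.12 and -1.02 at 3 dpi. The 1 dpi arrays were the lowest, while those of Ctrl and 3 dpi overlapped fully. The change at 1 dpi was -0.54 (SE 0.08, adjusted p = 0.00102), which passes the adjusted p but is under 2-fold, and at 3 dpi the gene was at -0.00 (95% CI -0.19 to 0.19). The 4 probes of Slc11a2 disagreed at 1 dpi. Besides the brightest, 2 were lower (-0.32 and -0.38), whereas the probe farthest upstream (100240516 to 100240575) was 0.93 higher (SE 0.14), with Ctrl at -4.08, -3.64 and -3.65 and 1 dpi at -2.86, -2.82 and -2.89. DMT1 transcripts are known to differ at both ends, and which transcripts each probe detects was not tested.

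The related Slc11a1 (chromosome 1, 74432161 to 74432220) encodes NRAMP1, a transporter of divalent metals in the phagosome membrane of macrophages and neutrophils. It read 1.05, 0.79 and 0.75 in Ctrl, 2.17, 2.13 and 2.17 at 1 dpi, and 2.13, 2.28 and 2.23 at 3 dpi. All irradiated arrays lay above all Ctrl arrays by more than the spread within any group, and both times overlapped. Slc11a1 rose by 1.30 at 1 dpi (SE 0.09, adjusted p = 2.5e-05), or 1.05 relative to the median of all genes. At 3 dpi it rose by 1.35 (SE 0.09, adjusted p = 2.0e-05). Its difference of 0.06 between both times did not pass (95% CI -0.15 to 0.26, adjusted p = 0.636). With array median scaling the change at 1 dpi was 0.95, under 2-fold, and the call at 3 dpi held in all 26 alternatives. The summed macrophage markers, given above, were higher than in Ctrl on every array at both times. The neutrophil and monocyte markers, led by Mpo, summed to 1590, 1640 and 1630 in Ctrl, 2700, 2540 and 2510 at 1 dpi and 1750, 1590 and 1670 at 3 dpi, with 3 of 18 called higher at 1 dpi and 1 at 3 dpi. The part of these cells in the Slc11a1 values was not tested.

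Slc25a37 encodes mitoferrin 1, which brings iron into mitochondria and is known for its role in erythroblasts. On its brightest probe (chromosome 14, 69860020 to 69860079) it read 3.19, 2.95 and 2.99 in Ctrl, 3.15, 3.22 and 3.18 at 1 dpi, and 2.51, 2.48 and 2.30 at 3 dpi. Ctrl and 1 dpi overlapped, and all 3 dpi arrays were lower. The change at 3 dpi was -0.62 against Ctrl (SE 0.09, adjusted p = 0.00132) and -0.75 against 1 dpi (adjusted p = 4.7e-04), both past the adjusted p and under 2-fold. At 1 dpi it was 0.14 (adjusted p = 0.21), which turns to -0.21 with array median scaling. All 4 probes were lower at 3 dpi than in Ctrl, the other 3 at -0.33, -0.44 and -0.48. At 1 dpi the other probes disagreed, from 0.42 (adjusted p = 0.00963 in limma) to -0.48. The probe at -0.48 at 1 dpi carries a different transcript name in the array files and lies 177810 bases from the nearest other probe. The low values at 3 dpi accompany the lowest erythroid sum, 77.2, 77.7 and 72, with 19 of 22 erythroid markers called lower than in Ctrl. Against 1 dpi 8 of them were called higher and 6 lower, so the sum and the majority of called markers went opposite ways there. The part of erythroid RNA was not tested. The paralogue Slc25a28, encoding mitoferrin 2, which is found in many cell types, was at 0.25 at 1 dpi and -0.18 at 3 dpi, neither of them called.

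The ferritin genes stood higher at 1 dpi. Fth1 (chromosome 19, 10059485 to 10059544), the heavy chain that oxidizes ferrous iron, read 6.91, 6.77 and 6.77 in Ctrl, 7.73, 7.74 and 7.71 at 1 dpi, and 7.21, 7.06 and 7.19 at 3 dpi. The 1 dpi arrays were the highest, those of 3 dpi lay between, and no groups overlapped. The change was 0.91 at 1 dpi (SE 0.07, adjusted p = 3.6e-05), a 1.88-fold difference and so short of a call, and 0.33 at 3 dpi (adjusted p = 0.00741). Ftl1 (chromosome 7, 52713318 to 52713377), the light chain that helps to form the iron core, read 6.60, 7.00 and 7.00 in Ctrl, 8.06, 7.94 and 7.89 at 1 dpi, and 7.20, 7.00 and 7.14 at 3 dpi. Its 1 dpi arrays were again above all others, while 3 dpi and Ctrl overlapped, and Ctrl replicate 1 was the lowest array. Ftl1 rose by 1.09 at 1 dpi (SE 0.12, adjusted p = 2.5e-04), or 0.85 relative to the median of all genes, and was at 0.24 at 3 dpi (adjusted p = 0.176). The call at 1 dpi ends in 9 of 26 alternatives. These are quantile normalization (0.40), normexp (0.39), array median scaling (0.75), the deposited table (0.56), the mean of both probes (0.95), the 3 slide terms, and the fit without Ctrl replicate 1 (0.96, also the value within the shared slide). The summed macrophage, neutrophil and monocyte, and erythroid markers, given above, were also higher at 1 dpi than in Ctrl on every array. Of the erythroid markers 13 of 22 were nevertheless called lower. The part of these cells in the ferritin values was not tested.

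The size of both ferritin changes hangs on how arrays are made comparable. The 1 dpi arrays had the lowest 75th percentiles, and before any scaling the mean log2 signal of Fth1 was 17.26 in Ctrl, 17.13 at 1 dpi and 17.63 at 3 dpi, and that of Ftl1 was 17.31, 17.37 and 17.60. At 1 dpi Fth1 was at 0.91 with the 75th percentile but at 0.22 in the deposited table, and Ftl1 was at 1.09 but at 0.40 after quantile normalization. Between 3 and 1 dpi Fth1 was at -0.58 (adjusted p = 4.7e-04), and at 0.11 after quantile normalization and 0.12 in the deposited table, so that the direction depends on the scaling. Ftl1 was at -0.85 (adjusted p = 0.00117), and quantile normalization left -0.16 of this, with an adjusted p above 0.05. At 1 dpi both genes were above Ctrl in all 26 alternatives. The second probe of Ftl1, whose 60-base sequence spans 482 bases of the genome and so crosses a splice junction, read 4.19, 4.09 and 4.10 in Ctrl, 4.95, 4.90 and 4.97 at 1 dpi, and 5.02, 5.00 and 5.00 at 3 dpi. It was as high at 3 dpi as at 1 dpi, at 0.88 (adjusted p = 2.1e-05) and 0.81 (adjusted p = 2.8e-05), with a difference of 0.06 between them (adjusted p = 0.406), unlike the brightest probe. The values of Ftl1 in the deposited table follow this second probe, with 0.56 at 1 dpi and 0.81 at 3 dpi. For Slc11a2, Slc25a37 and Ncoa4 too, the table is closest to a probe other than the brightest.

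**Figure D4:**
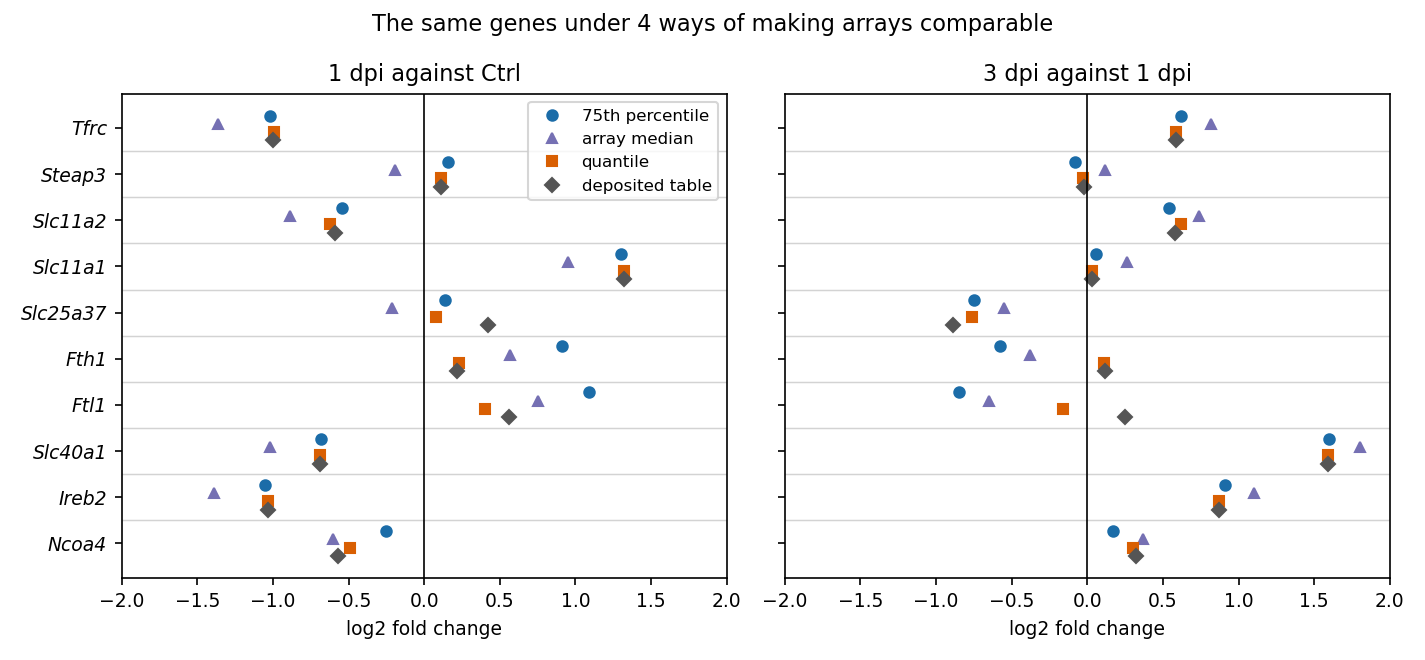
Log2 fold changes of the 10 iron genes at 1 dpi against Ctrl and at 3 dpi against 1 dpi under 4 ways of making arrays comparable. The deposited table follows another probe for Ftl1, Slc11a2, Slc25a37 and Ncoa4, Fth1 at 3 dpi against 1 dpi is -0.58 with the 75th percentile and 0.12 in that table, Steap3 and Slc25a37 at 1 dpi turn below 0 with the array median, and Slc40a1 at 3 dpi against 1 dpi is above 1.5 under all 4.

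Ncoa4 encodes the receptor that delivers ferritin to autophagy, which frees the stored iron. It read 4.86, 4.75 and 4.71 in Ctrl, 4.49, 4.55 and 4.53 at 1 dpi, and 4.64, 4.75 and 4.68 at 3 dpi. The 1 dpi arrays were the lowest and did not overlap with the others, and Ctrl and 3 dpi overlapped. The change at 1 dpi was -0.25 (SE 0.06, adjusted p = 0.0118), a 1.19-fold difference, and -0.42 on the second probe, which lies 98 bases away. Ncoa4 was thus slightly lower where the ferritin genes were higher, and at 3 dpi its change of -0.09 did not pass (adjusted p = 0.351).

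Slc40a1 (chromosome 1, 45965255 to 45965314) encodes ferroportin, the iron exporter. It read 3.03, 2.86 and 2.83 in Ctrl, 2.18, 2.24 and 2.27 at 1 dpi, and 3.86, 3.84 and 3.81 at 3 dpi. The 3 groups were fully apart, with 1 dpi below and 3 dpi above Ctrl, and the spread within the irradiated groups was small (SD 0.04 at 1 dpi and 0.03 at 3 dpi, n = 3 each). Against Ctrl, 1 dpi differed by -0.68 (SE 0.07, adjusted p = 1.6e-04) and 3 dpi by 0.93 (SE 0.07, adjusted p = 3.9e-05), both past the adjusted p and under 2-fold. Between 1 and 3 dpi Slc40a1 rose by 1.60 (SE 0.07, adjusted p = 9.1e-06), or 3.04-fold, the one called difference between the times among the members. The call held in 25 of 26 alternatives and ended when all probes were averaged (0.62). The second probe, 15323 bases away, carries another transcript name and read -2.41, -2.69 and -2.73 in Ctrl, -2.03, -2.10 and -2.13 at 1 dpi, and -2.48, -2.45 and -2.43 at 3 dpi. It went the other way at 1 dpi, at 0.52 (adjusted p = 0.00195), and was at 0.15 at 3 dpi.

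Ferroportin is also a gene of macrophages that recycle red cells. Among the macrophage markers, Cd163, the receptor for haemoglobin bound to haptoglobin, showed the same order of groups, with -1.78, -1.12 and -1.19 in Ctrl, -3.58, -3.46 and -3.25 at 1 dpi, and -0.93, -0.57 and -0.36 at 3 dpi. Its 3 groups did not overlap. At 1 dpi Cd163 fell by 2.07 (SE 0.21, adjusted p = 1.7e-04), and it then rose by 2.81 between 1 and 3 dpi (adjusted p = 7.1e-05). The macrophage list was mixed at 1 dpi. By the adjusted p 16 of its 22 genes were higher than in Ctrl and 5 lower, Cd163 among them, or 10 and 2 with the 2-fold minimum, and all 5 were above Ctrl at 3 dpi by the adjusted p. Between 1 and 3 dpi 11 were called higher and 0 lower (0 lower also by limma at an unadjusted p and by the methods' t-test, with the 2-fold minimum), and 21 were higher and 1, Lyz2, lower by the adjusted p, with a median of 1.00. The sum of the list, led by Lyz2, was above Ctrl on every irradiated array and overlapped between the 2 times, where Lyz2 itself was at -0.64. The part of macrophage RNA in the Slc40a1 values was not tested.

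Ireb2 (chromosome 9, 54759984 to 54760043) encodes IRP2, which senses low iron and is itself degraded when iron is plentiful. It read 1.76, 1.64 and 1.67 in Ctrl, 0.55, 0.66 and 0.73 at 1 dpi, and 1.39, 1.64 and 1.61 at 3 dpi. All 1 dpi arrays were far below the others, and Ctrl and 3 dpi overlapped. Ireb2 fell by 1.05 at 1 dpi (SE 0.09, adjusted p = 6.4e-05), or -1.29 relative to the median of all genes, and was 0.91 higher at 3 dpi than at 1 dpi (adjusted p = 2.0e-04), under 2-fold. At 3 dpi it was at -0.14 against Ctrl (95% CI -0.34 to 0.06). Without 1 dpi replicate 1 the change at 1 dpi is -1.00, just short of 2-fold. Aco1, which encodes the other iron regulatory protein, IRP1, was at -0.31 at 1 dpi and 0.21 at 3 dpi, while its dim second probe went the other way at 1 dpi, at 1.08 (adjusted p = 0.00156). Fbxl5, whose protein marks IRP2 for degradation when iron is present, was at 0.39 and 0.81, with 1.17 and 0.71 on its dimmest probe. Neither gene was called on its brightest probe.

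**Figure D5:**
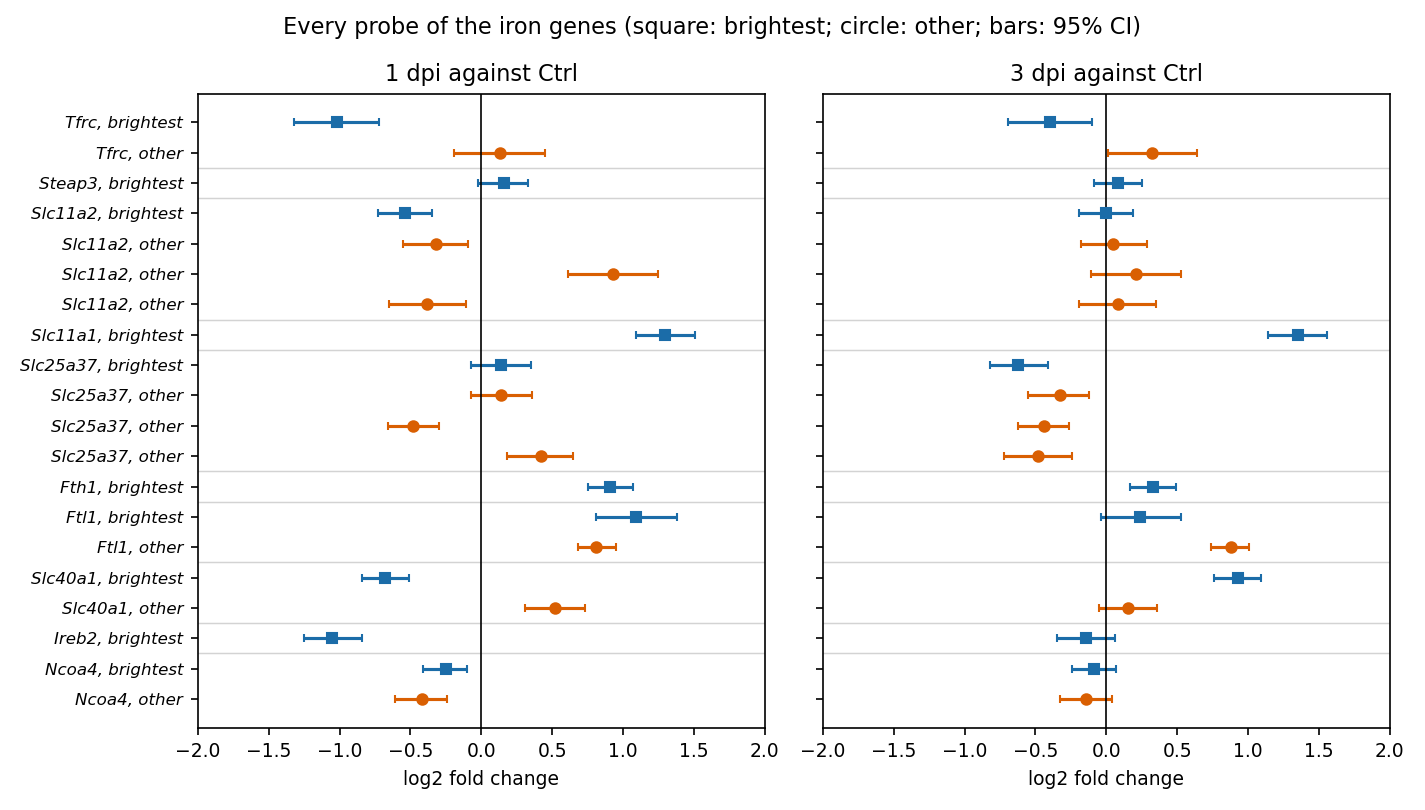
Log2 fold changes with 95% confidence intervals of all 20 probes of the 10 iron genes at 1 and 3 dpi against Ctrl, with squares for the brightest probe of a gene and circles for its other probes. The probes of Tfrc, Slc40a1, Slc11a2 and Slc25a37 disagree in direction at 1 dpi, while those of Ftl1 and Ncoa4 lie on the same side of 0.

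Of the 6 members with more than 1 probe, Ftl1 and Ncoa4 kept their direction over all probes at both times. For Tfrc, Slc40a1, Slc11a2 and Slc25a37 at least 1 dimmer probe differed in direction at 1 dpi. Steap3, Slc11a1, Fth1 and Ireb2 have 1 probe each, so no such comparison exists for them. The files do not state which exon or part of the transcript each probe covers.

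The other genes of iron handling were taken from 5 lists of 74 genes, of which 71 were tested, while Steap1, Hephl1 and Hamp were too dim. At 1 dpi 10 of the 71 were called higher and 2 lower, where 12.3% and 2.87% of all genes were. At 3 dpi the counts were 13 higher and 1 lower (6.98% and 1.82% of all genes), and between both times 7 higher and 1 lower (3.97% and 4.82%). Their median log2 fold change was 0.10 at 1 dpi and 0.17 at 3 dpi, against 0.25 and 0.11 for all genes. The balance at 1 dpi depends on the scaling. With array median scaling 6 of the 71 were called higher and 7 lower, where 1887 and 2303 of all genes were. Lcn2 is also on the neutrophil and monocyte list and Cd163 on the macrophage list.

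In the list of export and systemic control, 4 of 9 tested genes were called higher at 1 dpi and 7 at 3 dpi, and 0 lower at either time, also by limma at an unadjusted p and by the methods' t-test with the 2-fold minimum. With that minimum the methods' t-test gave 3 higher at 1 dpi. Of the 7 at 3 dpi, 1 was well above background on 0 of 3 Ctrl arrays, and its change is only bounded, at a value under 2-fold. Heph and Cp, whose products oxidize exported iron so that transferrin can bind it, were among the called genes. Heph, encoding hephaestin, read -4.54, -4.47 and -4.36 in Ctrl, -3.08, -3.31 and -3.14 at 1 dpi, and -1.50, -1.38 and -1.32 at 3 dpi. Its groups did not overlap, and it rose by 1.28 and 3.06 (SE 0.09 for both), although 1 of its 3 probes was at 0.45 and -0.10. Cp, encoding ceruloplasmin, rose by 1.38 and 2.95 (SE 0.16 for both), with its 5 probes between 0.20 and 1.60 at 1 dpi and between 0.66 and 2.95 at 3 dpi. Hamp2, a relative of hepcidin, rose by 1.08 and 1.59, but it read -4.93, -3.67 and -3.84 in Ctrl, and without Ctrl replicate 1 the change at 1 dpi is 0.68, no longer called, and that at 3 dpi 1.20. Neo1 was at 0.94 at 1 dpi and rose by 1.32 at 3 dpi. In these same groups the stromal markers, led by Sparc, summed to 16.4, 16.1 and 16.8 in Ctrl, 88.9, 75.2 and 80.6 at 1 dpi and 149, 137 and 147 at 3 dpi, with 11 and 10 of 15 called higher. The endothelial markers, led by Stab2, summed to 3.51, 3.2 and 3.29, then 6.34, 5.64 and 5.98, then 11.9, 9.98 and 10.4, with 4 and 7 of 10 called higher. The part of these cells in the export genes, Slc40a1 included, was not tested.

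Among 13 other uptake genes 3 were called higher and 1 lower at each time. Tfr2, the second transferrin receptor, read 2.07 on all 3 Ctrl arrays, 0.95, 0.98 and 0.88 at 1 dpi, and 0.87, 0.84 and 0.78 at 3 dpi. It fell by 1.13 and 1.24 (SE 0.06 for both, adjusted p = 4.8e-06 and 2.8e-06), the second probe gave -1.19 and -1.29, and its arrays at 3 dpi were below those at 1 dpi by an amount that did not pass (-0.11, adjusted p = 0.155). The ferrireductase gene Steap4 rose by 1.09 and 2.74, Hfe, whose protein binds the transferrin receptor, was at 0.31 and rose by 1.16 at 3 dpi, and Scara5, a ferritin receptor, rose by 1.05 at 1 dpi (0.89 and not called without Ctrl replicate 1) and was at 0.25 at 3 dpi. The other gene called higher at both times was Steap2, named after its values were seen. It was well above background on only 2 of 3 Ctrl arrays and was called at neither time by the methods' t-test. Without Ctrl replicate 1 its change of 1.70 at 1 dpi was 0.94, no longer called, and that of 2.10 at 3 dpi was 1.34. Of 14 haem genes 2 were called higher and 1, Cd163, lower at 1 dpi, and 3 higher at 3 dpi. Of those 3, 1 was well above background on only 2 of 3 Ctrl arrays and 1 of 3 arrays at 1 dpi. Hmox1, which encodes the enzyme that frees iron from haem, read 3.64, 3.59 and 3.42 in Ctrl, 5.06, 5.12 and 5.29 at 1 dpi, and 4.22, 5.22 and 5.14 at 3 dpi. It rose by 1.61 (SE 0.25, adjusted p = 0.00115) and 1.31 (adjusted p = 0.00489), and 3 dpi replicate 1 was the lowest irradiated array. Lrp1, a receptor for haem bound to haemopexin, rose by 1.38 and 2.20. Of 22 erythroid markers 13 and 19 were called lower at 1 and 3 dpi and 3 and 1 higher. Of 22 macrophage markers 10 and 17 were called higher and 2 and 0 lower. The part of these cells in the values of Tfr2, Hmox1 and Lrp1 was not tested.

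Among 10 genes of storage and cytosolic sensing, Herc2 alone was called, with a rise of 2.74 at 1 dpi, but its other 3 probes read -0.49, 0.48 and -0.54. The list of 25 genes of mitochondrial iron and iron-sulfur clusters had 0 genes called in any comparison with limma. The count with the same 2-fold minimum was 0 at an unadjusted p and by the methods' t-test as well. Without the minimum fold, 3 of the 25 were higher and 7 lower at 1 dpi by the adjusted p, or 3 and 8 by the unadjusted p, where the adjusted p alone had 34.8% of all genes higher and 21.1% lower. The export list held the most called genes at 3 dpi and between both times, and at 1 dpi it had 4, as had the uptake list. Of its 5 called between both times, 1 was well above background on 0 of 3 arrays at 1 dpi, and its change has no bound. Another was also above background on 0 of 3 arrays at 1 dpi, and its change is only bounded, at 2.78-fold or more.

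The genes most like 4 of the members were found among the 29400 genes outside the members by the root mean square (RMS) difference of log2 values over the 9 arrays, each gene centred on its Ctrl mean. Tfrc was most like Suclg2 (RMS 0.05), Msantd2 (0.05) and 5330426P16Rik (0.06). Slc40a1 was most like Epb41l3 (0.10), Sema6d (0.11) and Gpd1 (0.11), so no tested gene followed it as closely as those named follow the other 3 members. Slc25a37 was most like Fgf3 (0.06), Nfix (0.07) and a transcript on chromosome 2 that is named only by position (0.07). Fth1 was most like a transcript on chromosome 6 named by position (0.05), Slc25a25 (0.05) and Junb (0.06). The 9 arrays fall into 3 groups, and likeness is given as a description only.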

How the data were processed

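Array intensities of 9 samples were read from the deposited scanner output. The authors deposited spot intensity values made with Agilent Feature Extraction 10.7.1.1, which subtracts background and removes trends across a slide and does not scale arrays to each other. They also deposited log2 values for 27275 gene names, with nearly equal quartiles on all arrays, made by a method that is not stated, and it was used as an alternative only. The paper's methods describe an Affymetrix chip, while the files are Agilent arrays with probes placed on mm9. Spots that are controls or outliers were dropped, with 20 probes lost in this way, and the spots of each probe were averaged.

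From log2 intensities the 75th percentile of each array over all its measured spots was subtracted. The filter kept 44300 probes, those well above background throughout at least 1 group of 3 arrays, and the brightest stood for its gene, which left 29410 genes. One model of the 3 groups was fitted with limma 3.58.1 in R 4.3.3, and p-values were adjusted by Benjamini-Hochberg over all genes, or over all kept probes where single probes are given. The input was read by data.table (version 1.17.8). Plots are from matplotlib 3.10.9 under Python 3.11.15. The steps were tested on simulated data. At 1 dpi the test missed the share of recovered genes first asked for, and the bar was lowered after that was seen. The alternatives were other scalings, background corrections, filters, probes, tests, blocks and left-out arrays. In an earlier run of these same steps the percentile was taken over averaged probes. It was changed to spots after those results had been seen, and the version over probes is kept as an alternative.

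The members and the gene lists were chosen with earlier results of these data known. Named are all members, the up to 4 called genes of each other iron list with the largest change against Ctrl, counting only comparisons in which both groups were well above background on all arrays (which passes over called genes that are dim in Ctrl, some with larger changes), and Tfr2, Hmox1, Aco1, Slc25a28 and Fbxl5 whatever their values, besides the most abundant gene and the dim markers of the cell type lists and the 3 genes most like each of 4 members. Also named are iron genes too dim to be tested, those that stand on 2 lists, and Steap2, which was added after its values were seen. All per-sample value columns that the authors deposited in tables were used, so that the number not used is 0.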

Additional observations from a re-analysis of the deposited data

Results flagged for a closer look

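Among the 10 members, 1 difference between the irradiated groups passed both the adjusted p and the 2-fold minimum. The log2 fold change of Slc40a1 against Ctrl at 3 dpi was 1.60 above that at 1 dpi (adjusted p = 9.1e-06 from limma), since the gene was below Ctrl at 1 dpi and above it at 3 dpi. All 3 arrays at 3 dpi were above all 3 at 1 dpi, as they were for 27.1% of all genes. The second probe of Slc40a1 gave -0.37 for the same difference. Between the same groups the sums of stromal and endothelial markers were higher at 3 dpi. Those of erythroid and of neutrophil and monocyte markers were lower, although 8 of 22 erythroid markers were called higher and 6 lower. The macrophage sum, led by Lyz2, overlapped, while 11 of 22 macrophage markers were called higher at 3 dpi and Lyz2 was at -0.64. The part of these cells in the difference was not tested.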

How the results depend on the processing

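The fold changes of the members and the counts of called members, other iron genes and all genes were computed under 26 alternatives. Marker lists, single probes, likeness and motifs were not, and the called other iron genes were followed singly only without Ctrl replicate 1 and by the methods' t-test. The alternatives are not independent of each other. Other tests, no minimum fold and an array left out of the third group keep a fold change as it was. The slide block, the fit within the shared slide and that without Ctrl replicate 1 amount to the same fit. Of 780 values of single members 723 kept their direction and their side of the threshold. Slc11a2 at 3 dpi, at -0.00, changed sign in 11 of them (0.01 with quantile normalization, 0.00 with normexp and with the percentile over probes, 0.09 with the mean of probes, 0.21 with the probe of largest interquartile range, 0.04 to 0.05 with slide terms, 0.05 without Ctrl replicate 1 or 3 dpi replicate 2, and 0.01 without 3 dpi replicate 3, in a range of -0.06 to 0.05 over the arrays left out). With the probe of largest interquartile range Slc11a2 was at 0.93 at 1 dpi and -0.72 between both times, since another probe stands for it. Array median scaling put Slc25a37 at -0.21 at 1 dpi, and Steap3 at -0.19, -0.07 and 0.12 in the 3 comparisons. Between both times Fth1 was at 0.11 with quantile normalization, 0.11 with normexp and 0.12 in the deposited table, where Ftl1 was at 0.25 on values that follow its second probe. Other causes were not tested.

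The 4 members called at 1 dpi became 2 with quantile normalization, normexp, the deposited table, the mean of probes and each of the 3 slide settings, in all of which Tfrc and Ftl1 were under 2-fold, and 8 with no minimum fold. With array median scaling there were 3, and these were all lower (Tfrc, Ireb2 and Slc40a1, the last at -1.02). The 1 member called at 3 dpi became 4 with no minimum fold. The 1 called between both times became 2 with array median scaling, 0 with the mean of probes and 7 with no minimum fold. All genes called were 1674, 1157 and 1089 in the 3 comparisons with normexp and 16443, 9416 and 13125 with no minimum fold, and 4489 between both times with no filter. The other iron genes called at 1 dpi (12) became 7 with quantile normalization, 5 with normexp and 44 with no minimum fold. At 3 dpi (14) they became 8 with normexp, 9 with a filter on all arrays and 35 with no minimum fold. Between both times (8) they became 5 with normexp, 5 with a filter on all arrays, 13 with the probe of largest interquartile range and 40 with no minimum fold.

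The part of the calls that point upwards moved with the scaling, with the minimum fold and, between both times, with the filter. At 1 dpi it was 81.1% of all genes, and 56.2% with quantile normalization, 45.0% with array median scaling, 68.5% with normexp and 49.7% in the deposited table. For the other iron genes it was 83.3%, and 57.1%, 46.2%, 60.0% and 77.8% in that order. Between both times 45.2% of all called genes were higher, and 62.9%, 68.2%, 52.6% and 62.6% in the same order. For the other iron genes it was 87.5%, and 90.0%, 90.9% and 80.0% with the first 3 of these. It was 58.3% in the deposited table, where 65 genes were tested and probes can differ, and 69.2% with the probe of largest interquartile range. The filter moved this part of all genes the other way, to 26.7% without a filter and 36.5% with the filter on all arrays. At 3 dpi 79.4% of all called genes were higher, and 66.7% in the deposited table. Without the minimum fold 62.3% were higher at 1 dpi, 52.7% at 3 dpi and 44.3% between both times.

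With each array left out in turn, the members called ranged from 2 to 4, 1 to 1 and 1 to 1, all genes from 3561 to 5367, 2347 to 2768 and 2264 to 2812, and the other iron genes from 9 to 14, 12 to 15 and 8 to 9. The count of 2 at 1 dpi came without Ctrl replicate 1, where Tfrc (-0.91) and Ftl1 (0.96) were under 2-fold, and without 1 dpi replicate 1, where Tfrc (-0.95) and Ireb2 (-1.00) were. With replicate number as a block 4, 1 and 1 members were called, the same counts as without it. Same-numbered arrays showed no sign of pairing, with r across genes from -0.11 to 0.13 over 9 pairs. The slide term rests on Ctrl replicate 1, the sole array of its slide, and was estimated at a correlation of 0.646. An alternative added after seeing the data, the percentile over probes, called 4, 1 and 1 members. Under it Ncoa4 passed the adjusted p alone between both times, which it missed in the main fit (0.0664 in limma).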
